A study of Mus musculus with 6 samples.

Results

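The genes described here encode the proteins of the mitochondrial ribosome, measured by RNA-seq in mouse gastrocnemius with muscle IRF4 either deleted or overexpressed. They were taken by symbol as every row of the gene table beginning with Mrpl or Mrps and a digit, and were kept when their counts summed to at least 60 over the 6 libraries. All 77 such symbols of the 24054 genes in the table were kept, since the lowest sum was 1410 counts, and all 77 were among the 12660 genes tested. By role, 50 encode proteins of the large subunit and 26 encode proteins of the small subunit. Mrps36 carries the family name but is known as a component of the 2-oxoglutarate dehydrogenase complex, and it is listed apart.

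Mitochondrial ribosomes translate the few messenger RNAs that mitochondrial DNA encodes, all of them for membrane subunits of the oxidative phosphorylation complexes. Their RNAs come from mitochondrial DNA, but every one of their proteins is encoded in the nucleus, made in the cytosol and imported. Some of these proteins have counterparts in bacterial ribosomes, while others were added in the mitochondrial lineage. In skeletal muscle, mitochondrial content is known to differ between slow oxidative and fast glycolytic fibres.

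The study asked what IRF4, an interferon regulatory factor, does in skeletal muscle. Male C57BL/6 mice carried the Cre recombinase gene under Myl1 control, which acts selectively in skeletal muscle, in both groups. In MI4KO mice both Irf4 alleles were floxed and so deleted in muscle, and in MI4OE mice Cre removed a stop cassette in front of an Irf4 transgene at Rosa26. Each group had 3 libraries, so the comparison sets deletion against overexpression, and no Cre-negative or wild-type gastrocnemius was analysed here. The labels name a high fat diet while the study describes chow for its animals, so the diet is in doubt. No age was given in the sources used here. The labels do not say whether each library came from a separate mouse, so p-values measure the spread between these libraries.

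The libraries held 18828605 to 29239585 expected counts. The counts of Irf4 matched the labels, being 6, 0 and 2 under deletion and 2864, 10557 and 5911 under overexpression. Fast-fibre markers summed to 162600 to 306600 CPM (counts scaled to library size), the highest of the marker lists in every library. MI4OE replicate 1 stood apart: its 10 most abundant genes took 25.5% of counts against 32.8% to 36.8% elsewhere, and its slow-fibre markers summed to 6265 CPM against 23.5 to 565 CPM. Directions and medians by genotype are therefore given with and without it for the family, its roles and the gene lists. In whole muscle, fewer cells of a type and less RNA per cell cannot be told apart.

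Promoter windows were compared for the family. The RefSeq promoter table used here gave windows of 300 bases (250 before and 50 after each annotated start, GRCm38.p6) for 68 of the 77 genes, 74 windows in all, and it held no window under the symbols of the other 9. Windows were searched on both strands for letters close to the core sites of NRF1 (GCGCATGC), ETS factors such as GABP (CCGGAAG) and YY1 (AAGATGGCG), which are known regulators of nuclear genes for mitochondria. Of the 74 windows, 35 (47.3%) held at least 1 of the 3 and 39 held none, where 12.1% of all 32851 promoters and 22.7% of the 12186 promoters of tested genes held at least 1. The NRF1 letters were in 10.8% of the windows, against 2.71% of all promoters and 5.12% of those of tested genes. The ETS letters were in 33.8%, against 8.86% and 16.6%. The YY1 letters were in 10.8%, against 1.40% and 2.93%. The E-box (CACGTG) was in 9.46%, against 7.15% and 9.90%, and the GC box (GGGCGG) in 52.7%, against 35.7% and 61.8%. The letters of an interferon regulatory factor core (AANNGAAA) were in 17.6%, against 23.9% and 17.9%. ETS and YY1 letters can overlap, but they overlapped in 0 of the 74 windows. A match describes letters only and does not show binding.

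The 5 windows printed here are shown because they belong to genes that the results turn on or hold the clearest arrangements. Capitals mark NRF1, ETS or YY1 letters on either strand. Mrpl32 (bL32m, chr13:14612988-14613287, minus strand) held overlapping and separate NRF1 matches and was among the genes lower in MI4OE. Mrpl33 (bL33m, chr5:31613701-31614000, plus strand) held an NRF1 match next to an ETS match. Mrps27, which has pentatricopeptide repeats (chr13:99344536-99344835, plus strand), held an ETS and a YY1 match. Mrps11 (uS11m, chr7:78782881-78783180, plus strand) held a YY1 match, and its window shared 141 bases with that of Mrpl46, which is transcribed the other way. Mrpl14 (uL14m, chr17:45686099-45686398, plus strand) had the largest fold difference and the widest range, and its window held none of the 3.
Mrpl32: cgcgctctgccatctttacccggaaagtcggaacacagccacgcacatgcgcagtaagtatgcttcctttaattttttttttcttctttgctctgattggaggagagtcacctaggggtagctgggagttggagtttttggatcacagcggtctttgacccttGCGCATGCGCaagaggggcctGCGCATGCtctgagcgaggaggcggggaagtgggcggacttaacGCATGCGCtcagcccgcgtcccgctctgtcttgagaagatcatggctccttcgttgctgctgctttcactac
Mrpl33: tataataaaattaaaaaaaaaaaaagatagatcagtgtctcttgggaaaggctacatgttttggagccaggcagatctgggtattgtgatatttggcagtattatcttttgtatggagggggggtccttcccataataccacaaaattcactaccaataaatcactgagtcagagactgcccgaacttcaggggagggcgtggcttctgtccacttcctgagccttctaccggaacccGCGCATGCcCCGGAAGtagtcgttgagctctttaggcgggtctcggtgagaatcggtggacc
Mrps27: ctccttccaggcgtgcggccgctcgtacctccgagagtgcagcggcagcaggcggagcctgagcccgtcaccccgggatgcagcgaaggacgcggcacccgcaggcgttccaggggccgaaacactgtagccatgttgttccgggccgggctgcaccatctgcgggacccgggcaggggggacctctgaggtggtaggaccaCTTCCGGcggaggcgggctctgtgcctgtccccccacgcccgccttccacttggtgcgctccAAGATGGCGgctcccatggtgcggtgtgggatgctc
Mrps11: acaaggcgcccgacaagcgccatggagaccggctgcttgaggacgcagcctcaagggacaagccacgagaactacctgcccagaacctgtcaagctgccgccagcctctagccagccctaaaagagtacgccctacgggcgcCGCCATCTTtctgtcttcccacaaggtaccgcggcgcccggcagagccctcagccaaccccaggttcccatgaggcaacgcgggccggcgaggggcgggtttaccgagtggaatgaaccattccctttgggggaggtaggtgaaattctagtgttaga
Mrpl14: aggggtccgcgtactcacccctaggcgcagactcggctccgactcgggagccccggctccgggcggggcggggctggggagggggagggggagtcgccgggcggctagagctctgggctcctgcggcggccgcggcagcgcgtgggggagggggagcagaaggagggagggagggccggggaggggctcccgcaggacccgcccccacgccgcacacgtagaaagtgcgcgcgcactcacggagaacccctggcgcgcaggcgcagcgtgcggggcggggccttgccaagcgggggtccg

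The genes spanned a wide range of RNA levels. Per transcript length, in TPM (transcript abundance scaled to length and library, as a mean over 6 libraries), the median gene was at 57.0, with quartiles of 29.2 and 112. The highest was Mrpl42, a mitochondria-specific protein of the large subunit, at 556, 509 and 554 TPM in the MI4KO libraries and 750.0, 501 and 578 TPM in the MI4OE libraries. Mrps21, a small-subunit protein with a bacterial counterpart, followed at a mean of 505 TPM. Mrpl54, Mrpl30 and Mrpl23, all in the large subunit, came next with means of 257, 245 and 244 TPM. These 5 genes held 27.1% of the family's summed mean TPM. The lowest was Mrpl19 at 4.65, 5.49 and 6.03 TPM in MI4KO and 9.60, 6.04 and 6.97 TPM in MI4OE. Mrps25, Mrpl17, Mrpl1 and Mrpl41 were next lowest, with means of 9.15, 10.5, 12.2 and 12.4 TPM. Mrpl42 was 88.9-fold above Mrpl19 in mean TPM, although each ribosome is built with about equal numbers of most of its proteins. The order of the genes by TPM was much the same in each library, with a Spearman correlation over the 77 genes of 0.968 to 0.993 between pairs of libraries, a description over genes that share their lengths and annotation. By RefSeq coordinates 25 of the 77 genes overlap another gene, among them Mrpl14, Mrpl19, Mrpl27, Mrpl33, Mrps2, Mrps9, Mrps18a, Mrps18b, Mrps25 and Mrps27, so their counts are less certain. The levels of Mrpl1 and Mrpl15 rest on several transcripts whose shares varied between libraries.

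Between the genotypes, no mitochondrial ribosomal protein gene passed a test, in either subunit. With edgeR's quasi-likelihood test, 0 of 77 genes had an adjusted p under 0.05, where 0.0237% of the 12660 tested genes did. At an unadjusted p under 0.05 the count was again 0 of 77, against 7.58% of tested genes, and it was 0 of 77 by DESeq2, edgeR's exact test and limma on TPM. When a fold of at least 1.5 was asked for besides that p, as the study did, it was 0 of 77, against 6.64%. In 0 of 77 genes did the 3 MI4OE libraries lie wholly above or below the 3 MI4KO libraries, against 12.8% of tested genes. The lowest p was that of Mrpl19, at 0.115 (adjusted p = 0.747).

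The fitted differences were small and mostly in 1 direction. The log2 fold change (MI4OE over MI4KO) ran from −0.15 for Mrpl15 to 0.83 for Mrpl14, with a median of 0.14 (fold changes here are log2 throughout), while the median over all tested genes was near 0. It was above 0 in 67 of 77 genes (87%), against 50% of tested genes. The standard errors ran from 0.14 (Mrps2) to 0.53 (Mrpl14), with a median of 0.25. The 95% interval lay within 2-fold either way for 65 of 77 genes, against 62.3% of tested genes. It reached 1.5-fold higher in MI4OE for 57 genes and 1.5-fold lower for 7. The share of tested genes was not computed for these counts, so no lean of the family is read from them.

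**Figure D1:**
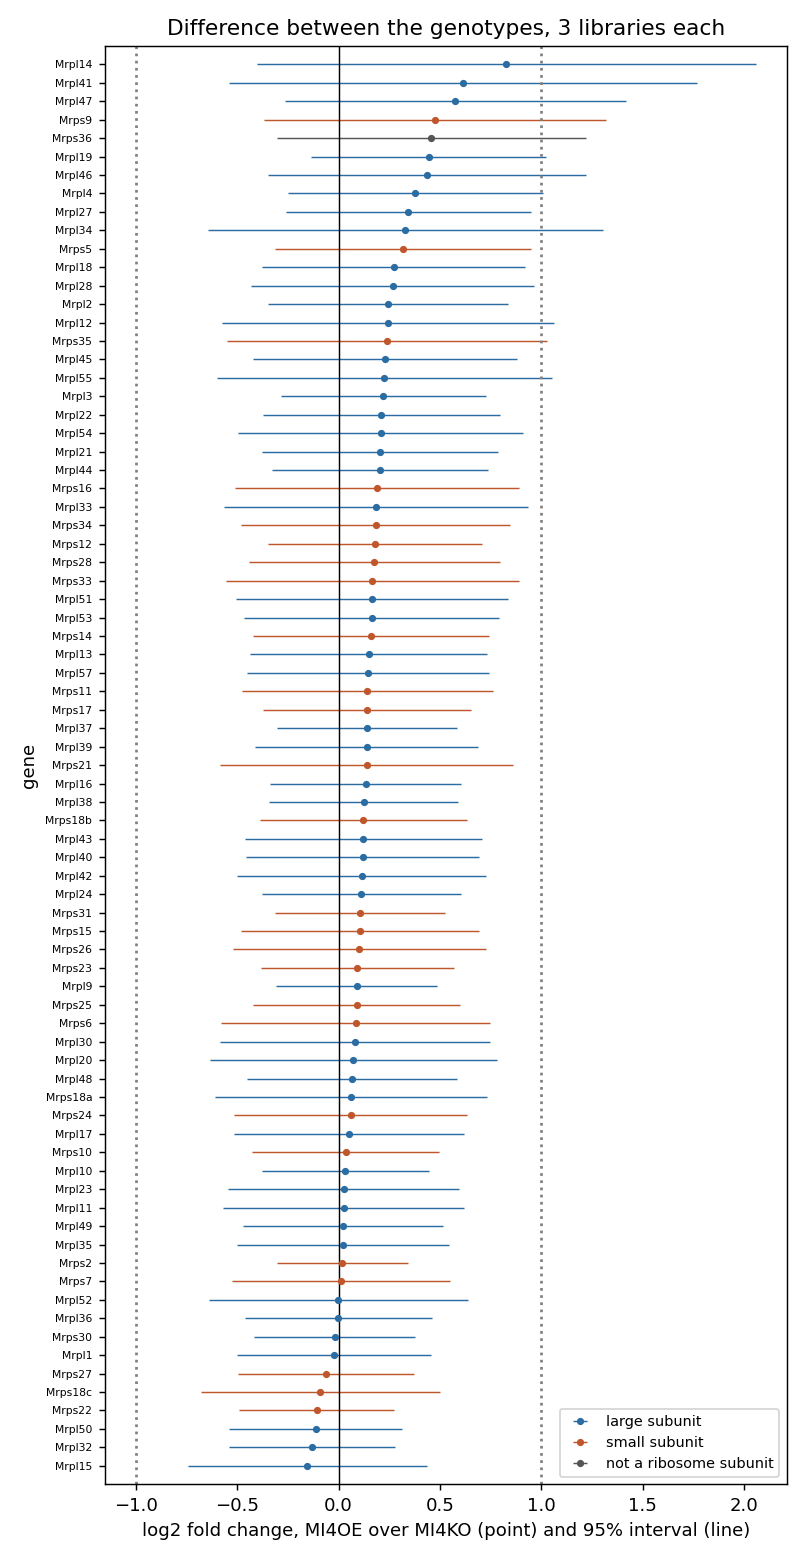
Log2 fold change of each of the 77 genes (x axis, MI4OE over MI4KO, n = 3 each; lines are 95% intervals; dotted lines mark 2-fold) with genes on the y axis sorted by value and coloured by subunit. All intervals include 0, and 67 points lie above 0, up to 0.83 for Mrpl14.

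The direction rested on MI4OE replicate 1. Without it, 6 of 77 genes were higher in MI4OE and 71 were lower, where 46.9% of tested genes were higher, and the median log2 fold change was −0.14. These values come from TMM-scaled counts only. Without MI4OE replicate 1, the MI4OE over MI4KO ratio of the family's summed TPM was 1.0. Of the 67 genes higher with all libraries, 61 were lower without this library, and the 10 that had been lower stayed lower. The 6 that stayed higher were Mrpl19 (0.14), Mrpl27 (0.097), Mrpl4 (0.040), Mrpl47 (0.027), Mrps9 (0.0051) and Mrps36 (0.0025), all log2. Without that library the genotypes did not overlap in 3 of 77 genes (Mrpl1, Mrpl32 and Mrps22), all lower in MI4OE, against 20.5% of tested genes in either direction and 9.38% lower. The 95% interval then lay within 2-fold for all 77 genes, against 65.1% of tested genes. It reached 1.5-fold higher for 4 (Mrpl14, Mrpl27, Mrpl41 and Mrps9), against 44.3% of tested genes. It reached 1.5-fold lower for 47 (61%), against 48.2% of tested genes. MI4KO replicate 2 mattered next: without it, 37 genes were higher and 40 lower, with a median of −0.02. Without MI4OE replicate 2, 4 genes (Mrpl14, Mrpl19, Mrpl47 and Mrps9) had an unadjusted p under 0.05 and at least 1.5-fold, where 10.8% of genes did at that p, and their lowest p was 0.0262 (Mrpl47) with an adjusted p of 0.405 or more by edgeR's quasi-likelihood test.

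**Figure D2:**
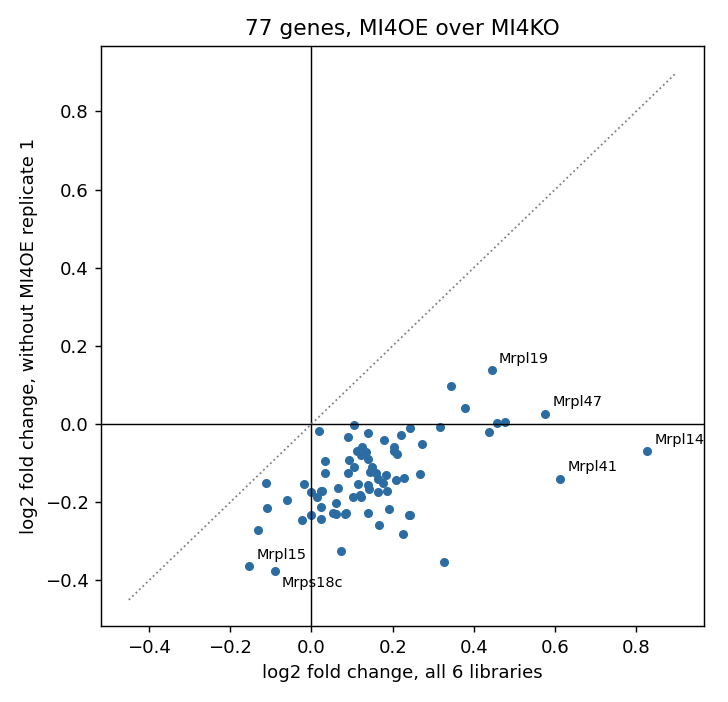
Log2 fold change of the 77 genes with all 6 libraries (x axis) against the value without MI4OE replicate 1 (y axis), with the dotted line of equality. All 77 points lie below the line, and 71 are below 0 on the y axis against 10 on the x axis.

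The family as a whole varied more within the genotypes than between them. Its summed CPM was 3745, 2566 and 3421 in MI4KO (3244 ± 609, SD, n = 3) and 4942, 2746 and 3143 in MI4OE (3610 ± 1170, SD, n = 3). The groups overlapped, and the ratio of their means was 1.11 with all libraries and 0.908 without MI4OE replicate 1. In TPM the sums were 6227, 5714 and 6743 in MI4KO (6228 ± 515) and 9333, 5884 and 6573 in MI4OE (7264 ± 1830), with a ratio of 1.17 and, without that library, 1.0. Scaled by total counts alone the ratio was 1.21, and 0.953 without that library. MI4OE replicate 1 was highest and MI4KO replicate 2 lowest on all 3 scales, while the order of the others depended on the scale. The family made up 0.571% to 0.933% of all transcripts by TPM.

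**Figure D3:**
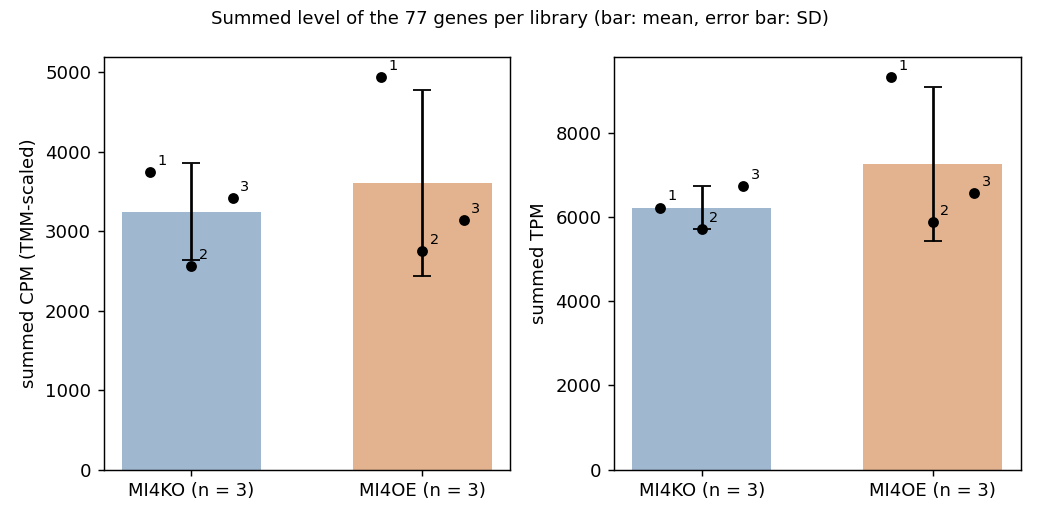
Summed level of the 77 genes per library (dots, numbered by replicate) in TMM-scaled CPM (left y axis) and TPM (right y axis), by genotype on the x axis; bars are means and error bars SD. MI4OE replicate 1 lies highest in both panels, at 4942 CPM and 9333 TPM, and the other 5 libraries of the groups overlap.

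The genes moved together from library to library. MI4OE replicate 1 was the highest library for 73 of 77 genes (94.8%), against 31.5% of tested genes. MI4KO replicate 2 was the lowest for 54 (70.1%), against 20.9% of tested genes, and MI4OE replicate 2 was the lowest for the other 23. The exceptions at the top were Mrpl15, Mrpl32 and Mrpl50, highest in MI4KO replicate 1, and Mrps22, highest in MI4KO replicate 3. Per TPM the top was the same library for 69 genes, but the lowest was divided among MI4KO replicate 2 (32 genes), MI4KO replicate 1 (26), MI4OE replicate 2 (17) and a single gene each in MI4KO replicate 3 and MI4OE replicate 1. Relative to each gene's mean, the median log2 CPM was 0.13, −0.37 and 0.05 in MI4KO and 0.53, −0.27 and −0.08 in MI4OE. Pearson's r of a gene with the median of the other genes over the 6 libraries had a median of 0.969, and it passed 0.9 for 64 genes, from 0.589 for Mrpl50 to 0.998 for Mrpl12. These r values describe 6 libraries that share 1 high library. After the family's median was taken from each gene, the SD of log2 CPM over libraries was 0.11 for the median gene, against 0.33 before.

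**Figure D4:**
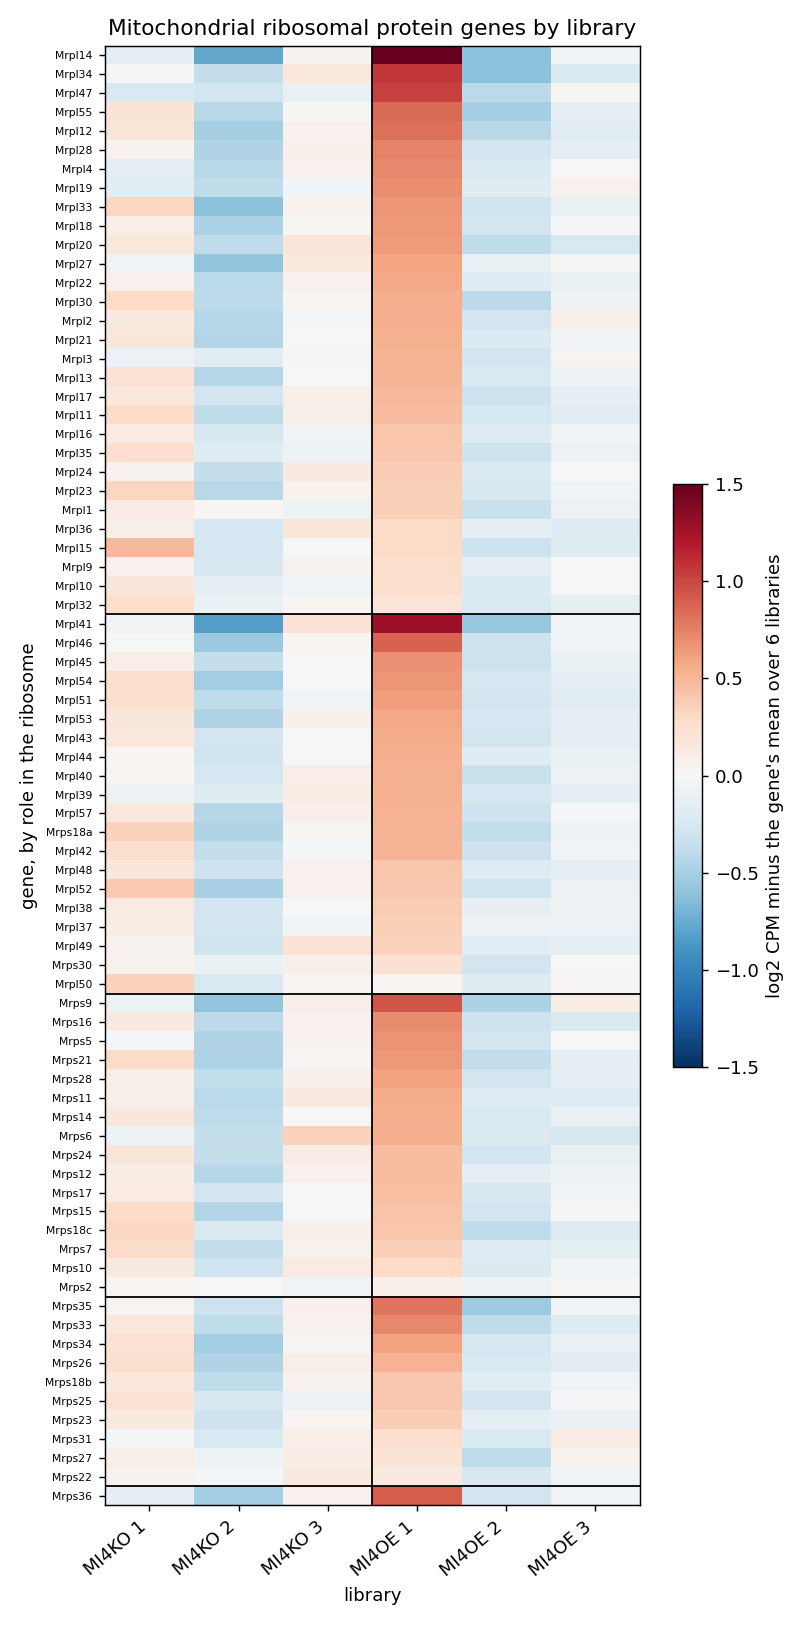
Log2 CPM of each gene minus its mean over the 6 libraries (colour), with libraries on the x axis and genes on the y axis, grouped by role with black lines between roles (from top: large subunit with a bacterial counterpart, large subunit mitochondria-specific, small subunit with a bacterial counterpart, small subunit mitochondria-specific, Mrps36). The column of MI4OE replicate 1 is red for nearly all genes, and those of MI4KO replicate 2 and MI4OE replicate 2 are mostly blue.

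By role, the subunits gave similar values, and the difference between them was not tested. In the large subunit, 43 of 50 genes were higher in MI4OE and 7 lower, with 0 past the test and a median log2 fold change of 0.14. Without MI4OE replicate 1, 4 were higher and 46 lower, with a median of −0.15. In the small subunit 23 of 26 were higher and 3 lower, with 0 past the test and a median of 0.11, and without that library 1 was higher and 25 were lower, with a median of −0.14. Proteins of the large subunit with bacterial counterparts (30 genes) had a median of 0.17 (−0.12 without that library), and the 20 mitochondria-specific ones 0.13 (−0.15). The 16 small-subunit proteins with counterparts had a median of 0.14 (−0.14), and the 10 mitochondria-specific ones 0.10 (−0.16). In MI4OE replicate 1, the median gene stood above the mean of the other 5 libraries by 1.56-fold in the large subunit and 1.46-fold in the small. The ratio of large- to small-subunit summed TPM was 2.26, 2.25 and 2.23 in MI4KO and 2.37, 2.25 and 2.30 in MI4OE. The groups overlapped at their nearest values, and the highest ratio was again in MI4OE replicate 1.

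Among large-subunit proteins with bacterial counterparts, Mrpl14, which lies where the subunits meet, had 41.0, 26.3 and 46.7 CPM in MI4KO and 129.9, 29.2 and 43.4 CPM in MI4OE. MI4OE replicate 1 was 3.48 times the mean of the other libraries, whose values overlapped between genotypes, and the log2 fold change was 0.83 ± 0.53 (SE; adjusted p = 0.791 by edgeR's quasi-likelihood test). Mrpl47 (uL29m) had 7.66, 7.33 and 8.40 CPM in MI4KO and 19.0, 6.75 and 9.19 CPM in MI4OE. Its log2 fold change was 0.58 ± 0.36 (adjusted p = 0.787), and 1 MI4OE library fell below all 3 MI4KO libraries. Mrpl34 (bL34m) had 32.1, 25.4 and 36.6 CPM in MI4KO and 69.0, 21.3 and 28.0 CPM in MI4OE. It was among the 5 genes with the widest spread within the genotypes, with Mrpl14, Mrpl41, Mrps9 and Mrpl55 (bL31m).

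Mrpl12, the stalk protein also known to bind the mitochondrial RNA polymerase, had the highest correlation with the median of the other genes, although its changes were wider than theirs (SD of 0.17 around the family median, against 0.11 for the median gene). It had 136, 84.0 and 125 CPM in MI4KO and 212, 89.6 and 106 CPM in MI4OE, with a log2 fold change of 0.24 ± 0.35 (adjusted p = 0.904). Mrpl19 had 17.4, 14.8 and 18.9 CPM in MI4KO and 32.0, 17.2 and 20.4 CPM in MI4OE, with a log2 fold change of 0.44 ± 0.25. A few genes of this class leaned the other way. Mrpl15 had 89.0, 52.4 and 62.8 CPM in MI4KO and 77.6, 50.6 and 55.5 CPM in MI4OE, with a log2 fold change of −0.15 ± 0.25 (adjusted p = 0.918). Mrpl32, whose precursor is known to be cleaved by the m-AAA protease on its way into the ribosome, had 28.4, 22.1 and 24.2 CPM in MI4KO and 26.9, 20.1 and 21.4 CPM in MI4OE. Both were highest in MI4KO replicate 1, and their groups overlapped.

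Among mitochondria-specific proteins of the large subunit, Mrpl41 had 15.8, 9.07 and 19.1 CPM in MI4KO and 40.8, 10.9 and 15.8 CPM in MI4OE. Its level in MI4OE replicate 1 was 2.88 times the mean of the others, and the log2 fold change was 0.61 ± 0.50 (adjusted p = 0.843). Mrpl45, known to help hold the ribosome at the inner membrane, had 52.2, 38.03 and 48.7 CPM in MI4KO and 78.4, 39.0 and 45.4 CPM in MI4OE. Mrpl46, which shares its promoter region with Mrps11, had 17.1, 11.5 and 17.7 CPM in MI4KO and 32.3, 13.8 and 16.7 CPM in MI4OE. Mrps11 itself had 17.2, 12.1 and 17.8 CPM in MI4KO and 24.0, 14.0 and 14.0 CPM in MI4OE. The divergent pair, chosen after its values were seen, moved together over the libraries (r = 0.954, n = 6, sharing the high library), and MI4OE replicate 1 stood further above the others for Mrpl46. Mrpl50 had 42.4, 28.3 and 33.9 CPM in MI4KO and 33.8, 29.3 and 33.6 CPM in MI4OE. It had the lowest correlation with the other genes (r = 0.589), at 1.01 times the mean of the other libraries in MI4OE replicate 1. Mrps30 and Mrps18a are named for the small subunit but sit in the large one. Mrps30 had 36.8, 32.9 and 37.1 CPM in MI4KO and 41.4, 29.0 and 35.1 CPM in MI4OE.

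The Mrps18 paralogs, related to the bacterial protein S18, differed in place and in level but none passed the test. Mrps18a, in the large subunit, had 73.5, 42.0 and 58.6 CPM in MI4KO and 82.5, 44.6 and 54.6 CPM in MI4OE (log2 fold change 0.06 ± 0.29). Mrps18b had 50.03, 34.4 and 46.5 CPM in MI4KO and 59.8, 39.8 and 42.9 CPM in MI4OE (0.12 ± 0.22). Mrps18c had 19.6, 13.4 and 16.5 CPM in MI4KO and 21.1, 11.9 and 13.6 CPM in MI4OE (−0.09 ± 0.25). All 3 were highest in MI4OE replicate 1, and their groups overlapped. How short reads shared by paralogs were divided is set by the authors' estimation.

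In the small subunit, Mrps9 (uS9m) had 27.5, 19.0 and 31.2 CPM in MI4KO and 56.1, 20.8 and 31.3 CPM in MI4OE. Its log2 fold change was 0.48 ± 0.36 (adjusted p = 0.837). Mrps12, which belongs to the decoding centre, had 33.2, 22.8 and 32.2 CPM in MI4KO and 42.7, 28.0 and 29.2 CPM in MI4OE. Mrps2 was the flattest gene of the family, with 16.3, 16.05 and 15.3 CPM in MI4KO and 16.9, 15.2 and 16.3 CPM in MI4OE. Its highest library was 1.11 times its lowest, against 1.87 for the median gene and 4.95 for Mrpl14. Mrps22, in which inherited variants are known to cause mitochondrial disease, had 13.2, 12.4 and 14.1 CPM in MI4KO and 14.0, 10.7 and 12.2 CPM in MI4OE. Mrps27 had 26.1, 23.3 and 26.5 CPM in MI4KO and 28.5, 18.7 and 25.5 CPM in MI4OE. For these genes too the genotypes overlapped. Mrps36, outside the ribosome, had 44.6, 34.2 and 51.2 CPM in MI4KO and 91.7, 39.95 and 47.0 CPM in MI4OE, with a log2 fold change of 0.46 ± 0.33 (adjusted p = 0.817).

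The motif letters were set beside the level in MI4OE replicate 1. The 8 genes with NRF1 letters were at a median of 1.44-fold in MI4OE replicate 1 over the other libraries, against 1.54-fold for the 60 without. The 25 genes with ETS letters were at 1.54-fold against 1.46-fold for the 43 without, and the 8 with YY1 letters at 1.43-fold against 1.56-fold for 60. These medians are descriptions with no test. The genes of the regulators themselves were not past the test: the log2 fold change was −0.11 for Nrf1, −0.13 for Gabpa, −0.13 for Yy1 and 0.02 for Ppargc1a, a coactivator of mitochondrial genes. These directions are for all libraries only. In MI4OE replicates 2 and 3, Gabpa had 15.3 and 12.6 CPM, against 11.2, 17.2 and 12.2 CPM in MI4KO. Yy1 had 29.1 and 27.4 CPM there, against 24.1, 31.1 and 26.2 CPM. Nrf1 had 9.79 and 10.2 CPM, against 11.1, 10.2 and 9.81 CPM. Ppargc1a had 17.5 CPM in both, against 24.9, 19.0 and 17.6 CPM. In MI4OE replicate 1, Nrf1, Gabpa and Yy1 were at 0.875, 0.673 and 0.644 times the mean of the other libraries and Ppargc1a at 1.42 times. The other regulators on the same list were named after their values were seen. The nuclear receptor genes Esrrb and Esrrg were at 8.16 and 3.3 times, and the coactivator genes Perm1 and Ppargc1b at 2.05 and 1.97 times. Esrra, Gabpb1 and Gabpb2 were at 1.49, 1.36 and 1.29 times, and Myc and Pprc1 at 0.916 and 0.787 times. That library was the highest for 8 of the 13 genes of the list.

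Other genes of mitochondrial gene expression were taken in lists from textbook knowledge, to be read against the 7.58% of tested genes with an unadjusted p under 0.05 and the 50% higher in MI4OE (46.9% without MI4OE replicate 1). Of 6 mitochondrial ribosome proteins with other names (among them Dap3, Ptcd3 and Ict1, which is Mrpl58), 4 were higher, 2 lower and 0 past an unadjusted p of 0.05, with a median log2 fold change of 0.14, and without that library all 6 were lower, with a median of −0.14. Of 27 ribosome assembly factors, 18 were higher and 9 lower, with 0 past it and a median of 0.14, and without that library 9 were higher and 18 lower, with a median of −0.035. Of 16 translation factors, 13 were higher and 3 lower (10 and 6 without that library), with 0 past it and a median of 0.11 (0.0081). The elongation factor gene Tufm was at 0.22 with all libraries. Tufm had 116, 95.1 and 116 CPM in MI4KO and 167, 101 and 115 CPM in MI4OE. Of 12 tested genes for mitochondrial DNA and its transcription, 7 were higher and 5 lower (5 and 7 without that library), with 0 past it and a median of 0.017 (−0.057), and Tfam was at 0.11 and Polrmt at 0.01. Of 13 regulators of mitochondrial genes, 9 were higher and 4 lower both with and without that library, with 0 past it and a median of 0.12 (0.057). Of 19 aminoacyl-tRNA synthetases, 13 were higher and 6 lower, with a median of 0.057 (11 and 8, with 0.030, without that library), and 1 passed the unadjusted p: Lars2, which charges the mitochondrial leucine tRNA, at a log2 fold change of 0.62. Its adjusted p was 0.626 by edgeR's quasi-likelihood test. Its mean of 2184 CPM was far from the 2.84 to 60.1 CPM of the other 18 synthetases.

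Larger families of nuclear genes were set beside it, those of oxidative phosphorylation and of the cytosolic ribosome. All 78 nuclear genes for oxidative phosphorylation subunits had a log2 fold change above 0, against 50% of tested genes, with a median of 0.38 and 0 past an unadjusted p of 0.05. But without MI4OE replicate 1, 17 were higher and 61 lower, where 46.9% of tested genes were higher, with a median of −0.11. Relative to each gene's mean their median log2 CPM was 0.08, −0.61 and 0.02 in MI4KO and 0.93, −0.43 and −0.03 in MI4OE. The 81 tested cytosolic ribosomal protein genes had 46 higher and 35 lower, 0 past that p and a median of 0.01, and without that library 1 was higher and 80 were lower, with a median of −0.26. Their centred medians were 0.33, −0.45 and 0.10 in MI4KO and 0.48, −0.34 and −0.10 in MI4OE. By centred median, MI4OE replicate 1 was also the highest library for the ribosome proteins with other names (0.46), the assembly factors (0.19), the translation factors (0.19) and the synthetases (0.08). For the synthetases it was the highest for 8 of 19 genes, and their summed CPM was highest in MI4OE replicate 2, at 3344 CPM against 2529 CPM. No test of a difference between the families was made.

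**Figure D5:**
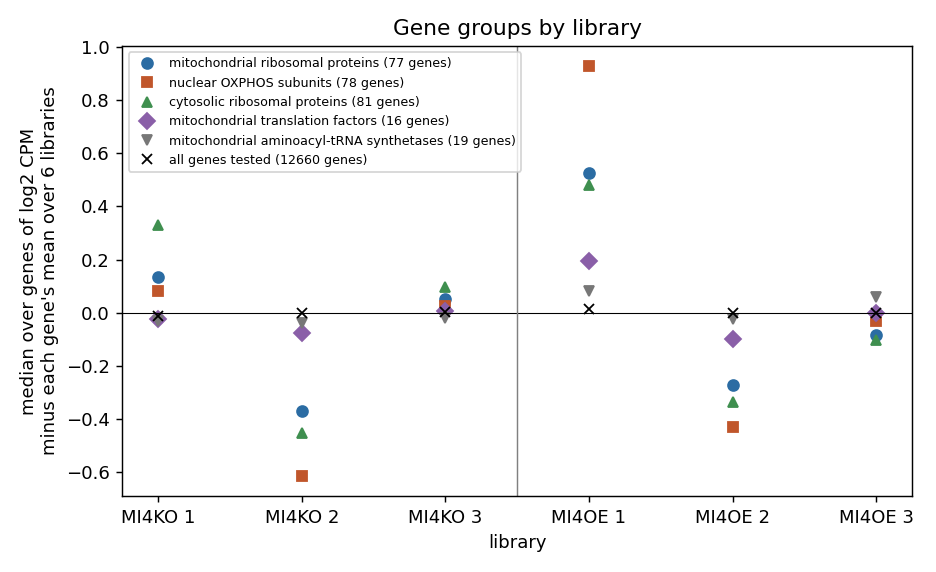
Median over the genes of a group of log2 CPM minus each gene's mean (y axis), by library (x axis). Mitochondrial ribosomal protein genes were at 0.53 in MI4OE replicate 1 and −0.37 in MI4KO replicate 2, between the oxidative phosphorylation genes (0.93 and −0.61) and all tested genes (near 0).

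Marker sums of cell and fibre types are given beside the family's level, and their part in it was not tested. Slow-fibre markers (7 of 7 in the table, 0 at zero in all libraries) summed to 23.5, 110.0 and 57.5 CPM in MI4KO and 6265, 35.4 and 565 CPM in MI4OE. The slow myosin heavy chain gene Myh7 was at 1603 CPM in MI4OE replicate 1 and at 0.212 to 162 CPM in the others. Markers of endothelium (5 of 5) summed to 69.9, 116 and 116 CPM in MI4KO and 264, 136 and 160 CPM in MI4OE. Those of erythrocytes (5 listed, with Hba-a2 and Hbb-bs at 0 throughout) summed to 173, 112 and 167 CPM in MI4KO and 463, 162 and 201 CPM in MI4OE, and were, like the family, highest in MI4OE replicate 1 and lowest in MI4KO replicate 2. Fibroblast markers (5 of 5) summed to 257, 200 and 305 CPM in MI4KO and 468, 354 and 476 CPM in MI4OE. Schwann cell markers (4 of 4) were highest in MI4KO replicate 2 and MI4OE replicate 2, where the family was lowest, at 33.4, 116 and 27.6 CPM in MI4KO and 91.4, 216 and 73.7 CPM in MI4OE. Adipocyte markers (6 of 6) summed to 181, 343 and 935 CPM in MI4KO and 266, 137 and 113 CPM in MI4OE. Macrophage markers (4 of 5 in the table) summed to 12.3 to 21.9 CPM. Fast-fibre markers (8 of 8) were lowest in MI4OE replicate 1, at 162600 CPM against 224900 to 306600 CPM. Transcript length is a further measure, and its part was not tested: 67 of the 77 genes were among the 4220 shortest transcripts of the 12660 tested genes. Those 4220 genes had centred medians of 0.09, −0.19 and 0.06 in MI4KO and 0.20, −0.13 and −0.04 in MI4OE, and the 4220 longest ran the other way at −0.12, 0.16 and −0.07, then −0.14, 0.12 and 0.03. The 4 family genes among the longest (Mrpl17, Mrpl19, Mrpl35 and Mrps25) had a median of 0.44 in MI4OE replicate 1, and the 67 short ones 0.54.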

How the data were processed

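RNA was read as single reads from stranded mRNA libraries of gastrocnemius, 3 MI4KO and 3 MI4OE. The authors demultiplexed with bcl2fastq 2.17, aligned with Bowtie2 2.1.0 to a UCSC transcript set and estimated levels with RSEM 1.2.15. The build and any use of strand in counting were not given in the sources used here. The deposited expected counts are not normalized. They were rounded to whole numbers for the tests, and CPM was computed from the unrounded values. The deposited TPM values are scaled by the authors per transcript length and per library. The deposited percent values are each isoform's share of its gene. The authors' own comparison tables (fold changes, p-values, CPM) were not used.

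Genes passing filterByExpr (minimum count 10, total 15) were scaled by TMM and tested with edgeR 4.0.16 (quasi-likelihood, R 4.3.3), MI4OE against MI4KO, with Benjamini-Hochberg adjustment over 12660 genes. Standard errors and 95% intervals come from that fit. CPM is scaled by TMM, and an offset of 0.5 was added before log2 of CPM. Alternatives used DESeq2 1.42.0, limma 3.58.1 on log2(TPM + 1) and log2(TPM + 0.1), edgeR's exact test and bias-adjusted deviances, other filters and scalings, and each library left out. The tests were tested on simulated data. Total counts of 18828605 to 29239585 leave no family gene under 185 counts in a library. Figures and summaries used Python with pandas.

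Genes were named if they had a p under 0.05 (at most 20), were among the 5 largest log2 fold changes per direction, the 5 highest or lowest mean TPM, or the 5 widest spreads within genotypes, or belonged to a fixed set of known roles. Mrps2, Mrps11, Mrpl46, Mrpl27, Mrpl33 and Mrpl4 were added after their values were seen. The family and all lists were chosen with earlier results of these data known. Protein sequences were not analysed here.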

Additional observations from a re-analysis of the deposited data

How the results depend on the processing

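No family gene had an adjusted p under 0.05 under any of the 16 alternatives, where the lowest was 0.405. Under the 10 that kept all libraries, 62 to 73 of 77 genes were higher in MI4OE and the median log2 fold change was 0.11 to 0.24. Total-count scaling gave the highest median and moved the median of all genes by 0.09. Leaving out each library in turn moved the family's median from −0.14 (without MI4OE replicate 1) to 0.28 (without MI4OE replicate 2), and the counts at an unadjusted p under 0.05, with or without 1.5-fold, from 0 to 4. Over all 12660 genes, 3 had an adjusted p under 0.05, against 111 with DESeq2 and 108 with the exact test. The study's criterion gave 841 of the 12660. With all libraries kept it ran from 468 with limma on log2(TPM + 1) to 1190 of 17741 genes with no filter beyond 1 count. With a library left out it ran from 590 of 12930 genes (without MI4OE replicate 1) to 1314 of 12845 (without MI4OE replicate 2). The cause was not tested.

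Of 20 named family genes with a fold (Mrpl19 and the values by role, list, overlap and interval without MI4OE replicate 1 were added after the data were seen), 17 kept their direction in the 10 settings. Total-count scaling reversed Mrps18c (to 0.026), Mrps27 (0.039) and Mrps30 (0.080), and limma on TPM reversed Mrps30 (0.031 with a pseudocount of 1 and 0.032 with 0.1). With each library left out, 6 of the 20 kept their direction and the others ran from −0.23 to 0.47 (Mrpl12), −0.070 to 1.19 (Mrpl14), −0.36 to 0.082 (Mrpl15), −0.35 to 0.63 (Mrpl34), −0.14 to 0.94 (Mrpl41), −0.14 to 0.42 (Mrpl45), −0.26 to 0.046 (Mrpl50), −0.28 to 0.48 (Mrpl55), −0.042 to 0.29 (Mrps12), −0.23 to 0.26 (Mrps18a), −0.080 to 0.23 (Mrps18b), −0.38 to 0.067 (Mrps18c), −0.20 to 0.094 (Mrps27) and −0.15 to 0.10 (Mrps30). No paired analysis was possible because the labels carry no replicate numbers shared by the groups. A library that leaves a group with 2 samples assumes the same spread in both groups.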

Other observations

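Most of the family is annotated with a single transcript: 69 of 77 genes had 1 and 8 had several. Of these, 3 with shared expression among transcripts are given here, chosen after their values were seen. The longer transcript of Mrpl1 took 65.6%, 45.1% and 88.3% of its gene's expression in the MI4KO libraries and 93.7%, 62.4% and 45.5% in the MI4OE libraries. The longest transcript of Mrpl15 took 58.4%, 41.3% and 51.4% in MI4KO and 78.0%, 47.8% and 40.4% in MI4OE. One transcript of Mrps10 took 56.0%, 69.5% and 58.1% in MI4KO and 44.9%, 57.3% and 58.0% in MI4OE. Genotypes overlapped in all 3, and MI4OE replicate 1 was highest for the Mrpl1 and Mrpl15 transcripts and lowest for that of Mrps10. Single short reads divide transcripts by estimation, so these shares carry an error that the files do not give.

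By RefSeq coordinates, 25 of the 77 genes overlap another gene. Mrpl14 overlaps Tmem63b, Mrpl19 overlaps Gcfc2, Mrps25 overlaps Nr2c2 and Mrps2 overlaps 1700007K13Rik. Whether counting used strand was not given in the sources used here, so the counts of these genes are less certain.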
